A study of Mus musculus with 8 samples.

Results

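In transfected Neuro2a cells, 190 genes of the 55367 in the count table were clearly lower in the CRISPR activation (CRISPRa) libraries than in the libraries without a guide RNA. The set was chosen by the measured values themselves: a mean of at least 1 CPM without the guide (CPM, a gene's count as its part in 1000000 counts of the library), every CRISPRa library below every library without it, and a ratio of the group means of at most 0.6. The level condition alone was met by 12786 genes. A further 6 genes that met all 3 conditions were left out by name, namely Adm, Ndufa4l2, Gbe1, Kcnh6, Rpl32l and Rpl22-ps1. Since these values selected the members, the differences between the groups are given below as a description, without a test.

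Neuro2a is a mouse neuroblastoma line. CRISPRa samples received 750 ng of a single guide RNA (sgRNA) plasmid and 750 ng of a plasmid for sadCas9-VP64, an inactive Staphylococcus aureus Cas9 fused to the activator VP64. The no-sgRNA samples received the sadCas9-VP64 plasmid only, in an amount the labels leave out. Both groups thus carry the activator and differ in the guide plasmid. Whether the activator dose or the total plasmid amount also differed is not known. Counts of poly(A)-enriched RNA were used for 3 libraries of each group, CRISPRa 2, 3 and 5 and no sgRNA 2, 3 and 4. The numbers are the replicate numbers of the sample titles, and nothing states that they are separate cultures. The p-values given for other genes therefore measure only the spread between these samples, which may be technical.

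Total counts lay between 29739422 and 34248514 per library. The target Scn2a, a sodium channel gene, had 267, 279 and 231 counts in CRISPRa 2, 3 and 5 and 190, 193 and 130 counts in no sgRNA 2, 3 and 4. The neuroblastoma markers Hand2, Prph and Ret had at least 9094 counts in every library. Of the markers of other cell types, Col3a1, Postn, Kdr, Cldn5, Itgam and Cd3e were at 0 counts in all 6 libraries. The 7 fibroblast markers, 1 of which (Col1a2) is in the set, summed to between 14.7 and 21.5 CPM with CRISPRa and between 28.8 and 31.7 CPM without the guide. All 26 genes of an interferon-stimulated list were called higher with CRISPRa (edgeR's quasi-likelihood test, Benjamini-Hochberg adjusted p under 0.05, median log2 fold change 5.12), and none is in the set. Their part in the lower values described here was not tested.

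By known function, 80 of the 190 members fell into 8 role groups, which were put together after the values had been seen. They are genes of the hypoxia response (9 members), sterol and lipid metabolism (7), DNA replication and cell division (22), actin and myosin contraction (3), the extracellular matrix and other secreted proteins (11), receptors and signalling (13), transcription factors (7), and redox, metal and transport proteins (8). Hypoxia-inducible factors (HIFs) bind a short DNA element and switch on glycolysis, angiogenesis and mitophagy genes when oxygen is scarce. Sterol regulatory element-binding proteins drive cholesterol synthesis and uptake when sterols are scarce. Genes of the replication fork and of the mitotic spindle are expressed in waves over the cell cycle, under E2F factors in early phases and under the DREAM and MuvB complexes, which bind the cell cycle genes homology region, in later ones. In bulk RNA a smaller share of cells in a state and less RNA per cell cannot be told apart.

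Upstream sequence, which the rule did not use, is shown for 5 members of the hypoxia and cell division groups. All 5 hold a form of the element named for their group before the start of transcription. Pmf1, of the cell division group, also holds such a match there and is not shown. Each line gives the 250 bases before the RefSeq gene start (GRCm38.p6), 5′ to 3′ on the strand of the gene, all on the minus strand. Capitals mark ACGTG or its reverse complement CACGT, a form of the core of the hypoxia response element, in the 3 hypoxia genes. Other forms of this core were not sought. In Cenpw and E2f8 the capitals mark TTTGAA or its reverse complement TTCAAA, a form of the cell cycle genes homology region. Other forms of this region were likewise not sought.
Bnip3, chr7:138909507-138909756: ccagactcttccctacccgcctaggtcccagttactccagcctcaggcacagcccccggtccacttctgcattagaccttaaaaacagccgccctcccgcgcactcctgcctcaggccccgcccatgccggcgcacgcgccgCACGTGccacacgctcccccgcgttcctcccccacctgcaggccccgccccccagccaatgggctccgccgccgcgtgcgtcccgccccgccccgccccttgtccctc
Fam162a, chr16:36071562-36071811: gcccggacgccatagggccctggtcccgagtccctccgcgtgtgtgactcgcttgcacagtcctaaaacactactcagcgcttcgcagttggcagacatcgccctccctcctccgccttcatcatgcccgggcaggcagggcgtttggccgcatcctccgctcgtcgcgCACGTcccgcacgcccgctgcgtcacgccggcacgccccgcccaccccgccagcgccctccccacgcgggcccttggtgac
Ankrd37, chr8:45999851-46000100: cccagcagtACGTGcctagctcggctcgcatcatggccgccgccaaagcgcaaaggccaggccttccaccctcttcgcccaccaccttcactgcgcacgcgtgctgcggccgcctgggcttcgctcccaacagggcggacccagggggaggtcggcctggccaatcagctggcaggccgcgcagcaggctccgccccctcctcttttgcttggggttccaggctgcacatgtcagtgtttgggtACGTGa
Cenpw, chr10:30200541-30200790: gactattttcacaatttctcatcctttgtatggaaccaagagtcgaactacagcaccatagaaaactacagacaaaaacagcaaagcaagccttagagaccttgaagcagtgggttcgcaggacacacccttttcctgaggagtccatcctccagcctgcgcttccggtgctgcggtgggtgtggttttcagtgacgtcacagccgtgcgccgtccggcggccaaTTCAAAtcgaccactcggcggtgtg
E2f8, chr7:48881597-48881846: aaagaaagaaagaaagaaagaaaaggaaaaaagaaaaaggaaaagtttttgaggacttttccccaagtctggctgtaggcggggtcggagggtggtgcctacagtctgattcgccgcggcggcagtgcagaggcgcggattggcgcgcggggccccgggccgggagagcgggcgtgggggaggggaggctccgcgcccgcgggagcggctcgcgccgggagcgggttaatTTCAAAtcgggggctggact
The 2 matches of Bnip3 overlap on opposite strands as a CACGTG palindrome, 108 bases before the start. Fam162a holds 1 match 81 bases before the start, and Ankrd37 holds 2, at 241 and 6 bases. The homology region lies 25 bases before the start of Cenpw and 20 bases before that of E2f8.

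Across the set, a promoter of 300 bases (250 before and 50 after the start) was matched for 136 of the 190 members. ACGTG occurred on either strand in 40 of these 136 (29.4%, Wilson 95% interval 22.4% to 37.6%). It occurred in 26.1% of the 9639 promoters of genes of at least 1 CPM and in 19.7% of all 27025 promoters. Among the members on the hypoxia list it was found in 5 of 6, Pdk1 being without, and in 23 of the 46 other promoters of that list. In the hypoxia role group it was found in 5 of 8, Fgf11 and Hif3a being without as well. The matches of Aldoc and Higd1a lie after the start, so in the 250 bases before it the counts were 3 of 6 members and 21 of 46 others. TTTGAA, the only form of the homology region sought, was found in 15 of the 136 members and in 11.7% of genes of at least 1 CPM. Within the replication and cell division group it was found in 5 of 16 (Cdca3, Cenpw, E2f8, Fbxo5 and Pmf1). Before the start this was 3 of 16, since the matches of Cdca3 and Fbxo5 lie after it. A promoter with only another form of the region is counted as being without it. TTCCCGCC, an E2F site, was found in Mcm3 and Mxd3 of those 16, and CACCCCAC, a sterol regulatory element, in Acat2 of the 5 lipid genes matched. CCAAT was held by 50.7% of the members (42.4% to 59.0%) and 39.4% of genes of at least 1 CPM, and TATAAA by 13.2% (8.54% to 19.95%) and 6.48%. TGCGCA, from the NRF1 site, was held by 7.35% (4.04% to 13.01%) against 14.9%. TATAAA was held by 14.2% and TGCGCA by 8.06% of all promoters, so for these the members stand nearer to all promoters than to those of expressed genes. The median share of G and C bases was 58.5% in the members, 61.3% in genes of at least 1 CPM and 52.7% in all promoters. The part of base composition and expression level in the motif shares was not tested. A match is a description of the letters and not a bound site.

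The ratio of mean CRISPRa to mean no-sgRNA CPM in the 190 members had a median of 0.540 and ran from 0.255 to just under 0.6. It was at most 0.5 in 60 members and at most 0.4 in 19. The members were low genes: their median level without the guide was 4.48 CPM against 32.5 CPM for all genes of at least 1 CPM, 98 lay under 5 CPM and 52 under 2 CPM. They summed to 0.513%, 0.501% and 0.338% of the counts in CRISPRa 2, 3 and 5, and to 0.752%, 0.770% and 0.905% in no sgRNA 2, 3 and 4. CRISPRa 5 thus held the smallest share and no sgRNA 4 the largest. By edgeR's quasi-likelihood test over 15117 genes, 9.25% were called lower with CRISPRa (adjusted p under 0.05), and 126 of the 190 members were among them. The test used the libraries that selected the members, so this count follows from the selection and nothing is read from it. Non-overlapping groups with CRISPRa lower, which the rule requires, were found in 20% of the genes of at least 1 CPM. In the authors' deposited table, which covers the same 6 samples and others, all 190 log2 fold changes were negative, from -2.09 to -0.32 with a median of -0.78. As these 6 samples selected the members, the signs follow largely from the selection and are no separate support.

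Several of the lowest ratios belonged to genes with few counts. Cilp, a cartilage matrix protein (chr9:65265180-65280605), had the lowest of all. It measured 1.99, 1.29 and 0.775 CPM in CRISPRa 2, 3 and 5 and 5.11, 6.15 and 4.63 CPM in no sgRNA 2, 3 and 4, a ratio of 0.255. The CRISPRa libraries of Cilp spread over a wider relative range than the controls, with CRISPRa 5 lowest. Selenbp1 (chr3:94933056-94944758), which encodes the methanethiol oxidase, measured 21.4, 22.1 and 4.93 CPM with CRISPRa and 48.0, 53.2 and 71.0 CPM without the guide. Its ratio of 0.281 rose to 0.379 when CRISPRa 5 was left out, and that library alone was at 0.226 of the mean of CRISPRa 2 and 3. Its paralog Selenbp2 on the same chromosome measured 0.526, 0.338 and 0.248 CPM against 0.856, 2.32 and 0.896 CPM. As 46.3% of the 50-base words of Selenbp1 transcripts also occur in Selenbp2, the split of reads between the pair is uncertain.

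**Figure D1:**
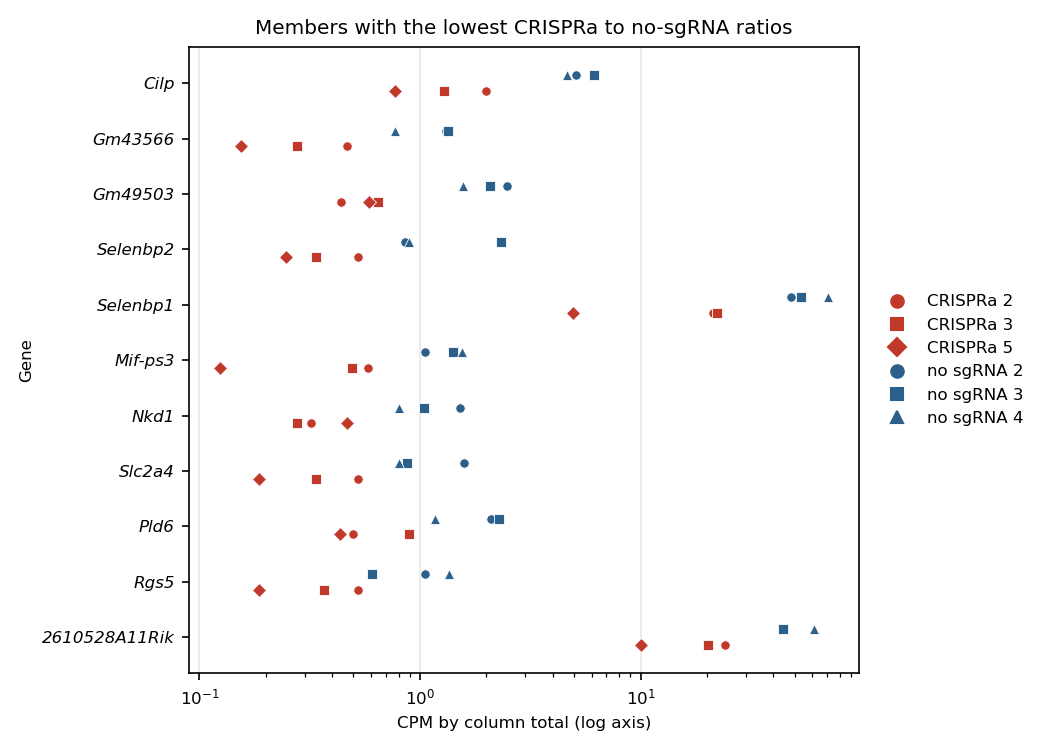
Members with the lowest ratios, 11 in number; each point is 1 library, the x axis is CPM on a log axis, red is CRISPRa, blue is no sgRNA, and the marker shape gives the replicate number. CRISPRa 5 (diamonds) is the lowest library in most of these genes, and all but Selenbp1 and 2610528A11Rik had less than 10 CPM in all libraries.

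Of the other members with the lowest ratios, 2610528A11Rik, which encodes a secreted peptide, measured 24.2, 20.3 and 10.0 CPM with CRISPRa and 44.0, 44.3 and 60.9 CPM without the guide. The others named here measured under 3 CPM in every library. They were Nkd1, an inhibitor of Wnt signalling (ratio 0.316), Slc2a4, the insulin-responsive glucose transporter (0.322), Pld6, a mitochondrial phospholipase (0.327), Rgs5, a regulator of G protein signalling (0.358), and the noncoding or pseudogene names Gm43566 (0.262), Gm49503 (0.273) and Mif-ps3 (0.299). Rgs5 was not called by edgeR, fell below a control mean of 1 CPM without no sgRNA 2 or without no sgRNA 4, and had a ratio of 0.539 in the 4 libraries numbered 2 and 3. Mif-ps3 was read from 20, 16 and 4 counts against 32, 42 and 50. In 68 of the 190 members at least 1 CRISPRa library had fewer than 30 counts. Of the 186 values of members between 1 and 30 counts, 73.1% were even numbers, as were 72.3% of such values over all genes, so a count need not be an independent fragment.

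Most of the abundant members were lowest in CRISPRa 5 and highest in no sgRNA 4. By CPM, which is not corrected for length, the highest was Bsg (basigin, a chaperone of lactate transporters, chr10:79704491-79711969), with 1779, 1742 and 1046 CPM in CRISPRa 2, 3 and 5 and 2381, 2512 and 2942 CPM in no sgRNA 2, 3 and 4. Averaged over 3 libraries each, Bsg stood at 1522 ± 413 CPM (SD) in the CRISPRa group against 2612 ± 294 CPM (SD) in the controls. Bsg does not meet the 0.6 ratio without CRISPRa 5 (0.674) or without no sgRNA 4 (0.622). Maged1, a MAGE family adaptor of p75 signalling, measured 655, 656 and 438 CPM against 958, 946 and 1221 CPM. Its ratio of 0.560 likewise became 0.629 and 0.612 without the one or the other library. Nt5dc2, a protein of the 5′-nucleotidase family, kept the ratio in both cases, with 143, 138 and 102 CPM against 255, 251 and 279 CPM. Rcn3, a calcium-binding protein of the endoplasmic reticulum, measured 188, 194 and 126 CPM against 261, 278 and 311 CPM.

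The hypoxia group was the one in which both libraries stood furthest from their partners among groups with more than 3 members. Bnip3, a mitophagy receptor induced by HIF, measured 158, 157 and 82.2 CPM in CRISPRa 2, 3 and 5 and 209, 184 and 274 CPM in no sgRNA 2, 3 and 4. The groups do not overlap, but the ratio of 0.596 became 0.709 without CRISPRa 5, 0.674 without no sgRNA 4 and 0.802 in the 4 libraries numbered 2 and 3. Aldoc, the brain form of aldolase, measured 80.1, 70.2 and 32.2 CPM against 104, 112 and 132 CPM, and its ratio of 0.524 exceeded 0.6 only without CRISPRa 5 (0.647). Pdk1, the kinase that turns off pyruvate dehydrogenase, measured 87.3, 88.0 and 50.5 CPM against 134, 121 and 162 CPM. Fam162a, a mitochondrial protein induced by HIF, measured 152, 140 and 87.5 CPM against 221, 206 and 250 CPM. In both genes the ratio passed 0.6 without CRISPRa 5 (0.631 and 0.646) and stayed under it without no sgRNA 4 (0.591 and 0.592).

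Higd1a, which steadies respiratory chain complexes, measured 46.5, 49.0 and 31.5 CPM with CRISPRa and 66.5, 74.5 and 93.8 CPM without the guide. Ankrd37, an ankyrin repeat protein and HIF target, measured 2.34, 2.83 and 2.14 CPM against 5.01, 2.99 and 7.17 CPM. In Ankrd37 no sgRNA 3 lay close to CRISPRa 3, and its ratio of 0.481 exceeded 0.6 only without no sgRNA 4 (0.608). Exons of another gene on the opposite strand cover 26.4% of the exonic bases of Ankrd37, 22.5% of those of Higd1a and 22.3% of those of Bnip3, so reads there are uncertain. Cox4i2, the cytochrome oxidase subunit used at low oxygen, measured 48.3, 46.2 and 26.6 CPM against 74.3, 79.2 and 92.1 CPM. Fgf11, an intracellular fibroblast growth factor homologue, measured 21.8, 20.9 and 10.3 CPM against 33.3, 32.8 and 44.0 CPM. Hif3a, a HIF alpha subunit, lay under 3 CPM in every library. CRISPRa 5 was the lowest CRISPRa library in 9 of the 9 and no sgRNA 4 the highest control in 8. The median ratio of CRISPRa 5 to the mean of CRISPRa 2 and 3 was 0.566, and that of no sgRNA 4 to the mean of no sgRNA 2 and 3 was 1.27. With only the 4 libraries numbered 2 and 3, the 0.6 ratio was kept by 1 of the 9, Hif3a.

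**Figure D2:**
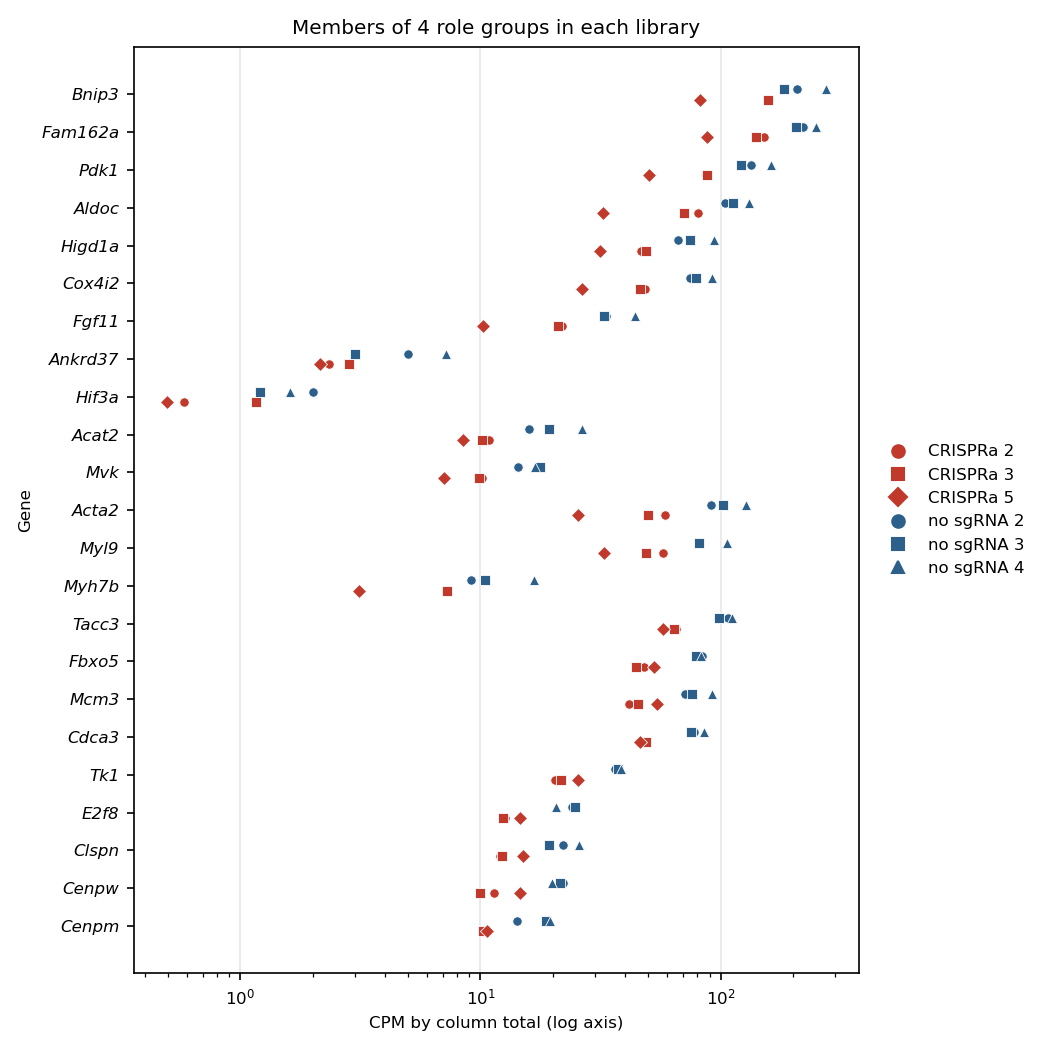
Members of 4 role groups, from top to bottom hypoxia-linked (9), sterol and lipid (2 of 7), contractile (3) and replication and division (9 of 22); each point is 1 library, the x axis is CPM on a log axis, red is CRISPRa, blue is no sgRNA, and the shape is the replicate number. In Bnip3, Aldoc and Acta2 the CRISPRa 5 diamond stands well below the other CRISPRa libraries, while in Mcm3, Clspn and Cenpw it lies above them.

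The other genes of the hypoxia and glycolysis list were also mostly lower. Of its 57 genes of at least 1 CPM 10.5% were members, against 1.49% of all genes at that level. The list of 61 genes had 58 tested, of which 44 were called lower and 2 higher, Bhlhe40 and Vegfa (named after their values were seen). Leaving aside the members and Adm, Ndufa4l2 and Gbe1, which also met the value conditions, 35 of 49 were called lower. Over all 15117 genes tested this share was 9.25%. The median log2 fold change of the 49 was -0.45, against -0.01 over all genes tested. The list was chosen with earlier results of these data known, so these values are a description and no independent support. Ddit4, an inhibitor of mTORC1, was lower by edgeR's quasi-likelihood test (log2 fold change -0.53, SE 0.07, Benjamini-Hochberg adjusted p = 0.000184). So were the corepressor Rcor2 (-0.44, SE 0.07, adjusted p = 0.000404) and Cited2, which competes with HIF for its coactivator (-0.43, SE 0.07, adjusted p = 0.000479). Bhlhe40, a repressor of the clock that HIF induces, was higher at 93.9 ± 10.2 CPM against 72.5 ± 3.94 CPM (SD, n = 3 each, adjusted p = 0.00883 by edgeR). Vegfa, the angiogenic growth factor, was higher at 896 ± 32.7 CPM against 772 ± 47.3 CPM (SD, n = 3 each, adjusted p = 0.0355 by edgeR). The list summed to 26433, 25639 and 19924 CPM in CRISPRa 2, 3 and 5 and to 30337, 30128 and 35543 CPM in no sgRNA 2, 3 and 4, the same order of libraries as in the members.

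Among the lipid genes, Mvk, mevalonate kinase, measured 10.2, 9.90 and 7.07 CPM against 14.3, 17.8 and 16.8 CPM. Acat2, a cytosolic acetoacetyl-CoA thiolase, measured 10.9, 10.1 and 8.49 CPM against 15.98, 19.4 and 26.5 CPM, but 39.1% of its 50-base words also occur in other genes, mostly Acat3. Pnpla3, a lipid droplet lipase, was the exception in its order of libraries, with 1.28, 1.11 and 1.49 CPM against 3.52, 3.67 and 3.24 CPM. Its ratio of 0.372 became 0.333 in the 4 libraries numbered 2 and 3. Pcyt1b and Plpp6, of phospholipid and isoprenoid phosphate metabolism, lost the 0.6 ratio without CRISPRa 5, and Pcyt1b also without no sgRNA 4.

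In the sterol and fatty acid list, also chosen with earlier results known, 18 of 35 tested genes were called lower and 0 higher. Outside the set 15 of 32 were called lower, with a median log2 fold change of -0.30. Over all genes tested 9.25% were called lower. Srebf1, the factor that drives fatty acid synthesis, was lower at a ratio of 0.676 (log2 fold change -0.58, SE 0.07, adjusted p = 2.4e-05 by edgeR). The desaturase Scd2 (-0.53, SE 0.08, edgeR adjusted p = 0.000367) and Aacs, the acetoacetyl-CoA synthetase (-0.48, SE 0.09, edgeR adjusted p = 0.00172), were also lower. Of 6 genes of the mevalonate steps, 4 were called lower, among them Mvk and 2 others at ratios of 0.670 (Pmvk, phosphomevalonate kinase) and 0.769 (Mvd, the decarboxylase). Most of these shifts were too small for the 0.6 ratio.

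The 22 replication and cell division members had a different order of the CRISPRa libraries. Mcm3, a subunit of the replicative helicase (chr1:20802968-20820312), measured 41.5, 45.4 and 54.4 CPM in CRISPRa 2, 3 and 5 and 70.9, 76.1 and 91.9 CPM in no sgRNA 2, 3 and 4. Here CRISPRa 5 was the highest of its group, and without it the ratio fell from 0.591 to 0.546. Fbxo5, the inhibitor of the anaphase-promoting complex, measured 47.9, 44.3 and 52.8 CPM against 83.2, 79.2 and 82.8 CPM. Tk1, thymidine kinase, measured 20.4, 21.5 and 25.4 CPM against 36.4, 37.5 and 38.4 CPM. In both genes the libraries of each group lay close together, and the ratio was lower without CRISPRa 5 (0.564 and 0.560).

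E2f8, a repressor of the E2F family, measured 12.7, 12.4 and 14.7 CPM against 24.1, 24.7 and 20.5 CPM. Cenpw, a centromere protein, measured 11.4, 9.99 and 14.7 CPM against 22.1, 21.5 and 19.9 CPM. These are the members whose upstream sequence is shown above, and in both no sgRNA 4 was the lowest control. Cenpm, of the same centromere complex, measured 10.4, 10.2 and 10.7 CPM against 14.2, 18.8 and 19.4 CPM. Clspn, an adaptor of the replication checkpoint, measured 12.1, 12.3 and 15.0 CPM against 22.0, 19.3 and 25.8 CPM. Mybl2, the Myb factor of the MuvB complex, measured 23.8, 27.5 and 26.8 CPM against 45.8, 45.4 and 51.5 CPM. H2ax and Tacc3, a histone of the DNA damage response and a spindle protein, followed the order of the hypoxia genes, with 39.9 and 57.7 CPM in CRISPRa 5 as the lowest values of each.

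Over the group, CRISPRa 5 was the lowest CRISPRa library in 9 of 22, and its median ratio to CRISPRa 2 and 3 was 1.04. On the control side no sgRNA 4 was the highest library in 15 of 22, with a median ratio to no sgRNA 2 and 3 of 1.12. Without CRISPRa 5 the 0.6 ratio was lost by 5 of 22 and without no sgRNA 4 by 12 of 22. In the 4 libraries numbered 2 and 3 it was kept by 14 of 22. The group's ratios lay near the threshold, with a median of 0.585. Related genes were chosen after the values had been seen. Their counts include members, which were selected as low, and 9.25% of all tested genes were called lower. Of the 6 helicase subunits Mcm2 to Mcm7, 5 were called lower, among them the member Mcm3. Mcm4 and Mcm5 lay just outside the set at ratios of 0.606 and 0.608, while Mcm2 was not called at 1.05. All 4 subunits of the Ndc80 complex, which ties kinetochores to microtubules, were called lower, Spc24 being the member and Ndc80, Nuf2 and Spc25 at 0.704, 0.673 and 0.669. Of 20 genes named Cenp, 6 were called lower, 2 of them the members Cenpm and Cenpw. On the nucleotide synthesis list 8 of 24 tested genes were called lower, among them the member Tk1, and 1 higher. Outside the set 7 of 23 were called lower. Rrm2, the ribonucleotide reductase subunit of S phase, was among these (log2 fold change -0.72, SE 0.10, adjusted p = 0.000152 by edgeR).

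**Figure D3:**
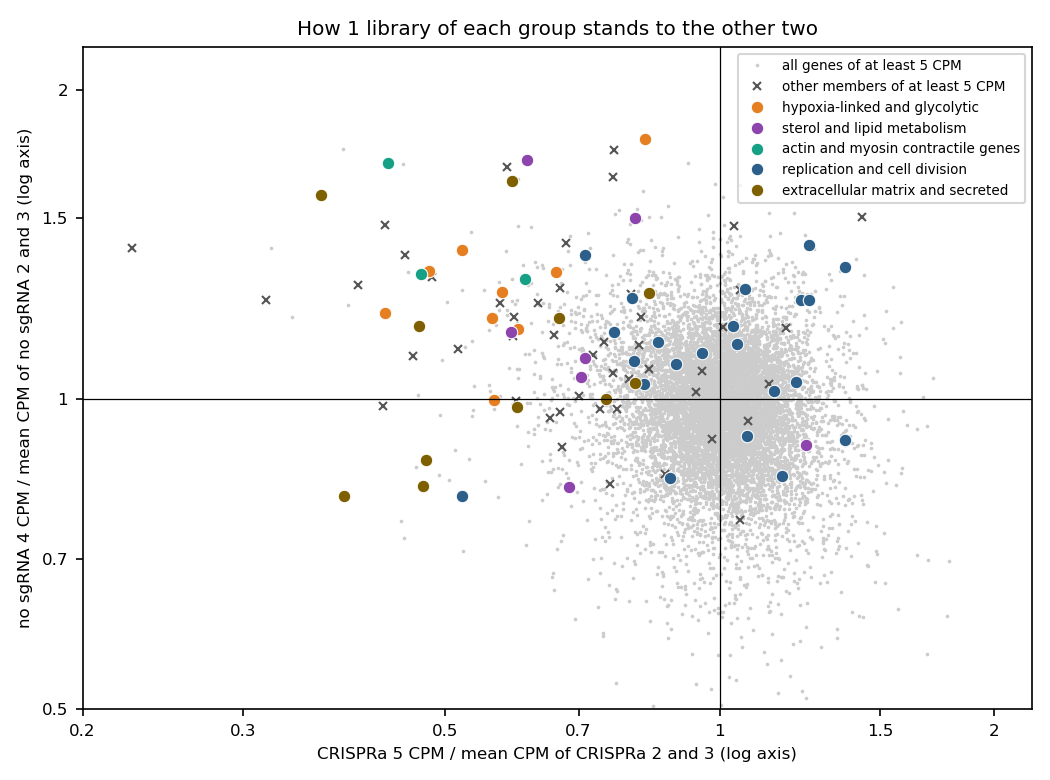
Each point is a gene; the x axis is CRISPRa 5 CPM over the mean of CRISPRa 2 and 3, the y axis is no sgRNA 4 CPM over the mean of no sgRNA 2 and 3, both on log axes; grey points are genes of at least 5 CPM within the axes, crosses are members of that level in none of the 5 coloured groups, and coloured points are all members of the 5 role groups. The 9 hypoxia-linked members lie left of 1 (0.429 to 0.828), whereas the 22 replication and division members spread around 1 (0.521 to 1.37).

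The 3 contractile members, smooth muscle actin Acta2, the myosin light chain Myl9 and the myosin heavy chain Myh7b, kept the 0.6 ratio with each of the 6 libraries left out in turn. Acta2 (chr19:34241090-34255590) measured 58.7, 50.04 and 25.5 CPM with CRISPRa and 91.5, 102 and 128 CPM without the guide. Myl9 measured 57.6, 48.8 and 32.5 CPM against 80.9, 81.5 and 106 CPM. CRISPRa 5 was lowest and no sgRNA 4 highest in all 3, with a median ratio to their partners of 0.470 and 1.32. In the 4 libraries numbered 2 and 3 the ratio stayed under 0.6 only for Acta2 (0.562), and was 0.655 for Myl9 and 0.736 for Myh7b. Of 9 tested smooth muscle contractile genes, chosen after the values had been seen, 3 were called lower and 0 higher. Of these 3, 2 were the members Acta2 and Myl9, so the count follows mostly from the selection. The third was Tpm2, at a log2 fold change of -0.27 (adjusted p = 0.0266 by edgeR). Over all tested genes 9.25% were called lower.

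In the matrix and secreted group CRISPRa 5 was the lowest CRISPRa library in 11 of 11, while no sgRNA 4 was the highest control in 6. Igfbp2, a binding protein of insulin-like growth factors, measured 246, 240 and 196 CPM with CRISPRa and 371, 398 and 399 CPM without the guide. Col9a2 and Matn3, both of cartilage matrix, measured 8.88, 9.22 and 6.79 CPM against 15.0, 14.1 and 14.6 CPM, and 16.3, 16.2 and 13.6 CPM against 26.0, 26.3 and 33.1 CPM. Col1a2, a chain of type I collagen, measured 5.31, 5.04 and 3.10 CPM against 7.51, 8.94 and 8.09 CPM. The collagen ratios of 0.570 and 0.548 became 0.621 and 0.633 without CRISPRa 5. Cbln3, a synaptic organiser of the cerebellin family, and C3, the central complement component, were lower at 4.08 CPM or less, with ratios of 0.370 and 0.415. The matrix list as a whole did not move one way, with 11 genes called lower and 12 higher of 51 tested. Agrn, the heparan sulphate proteoglycan agrin, was higher (log2 fold change 1.41, SE 0.09, adjusted p = 2.35e-08 by edgeR).

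**Figure D4:**
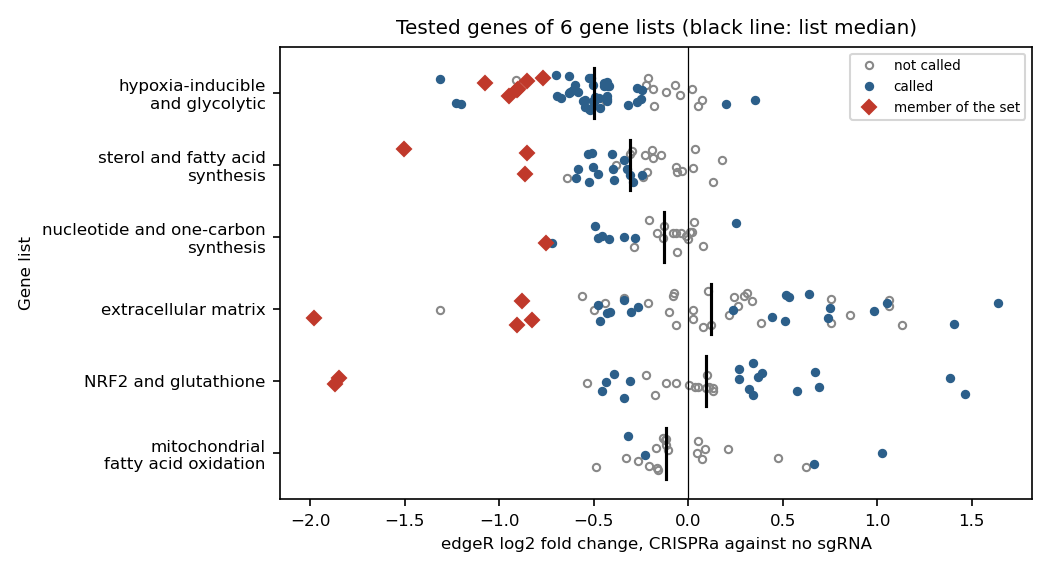
edgeR log2 fold change (x axis, CRISPRa against no sgRNA) of every tested gene of 6 gene lists (y axis); filled blue points were called at an adjusted p under 0.05, open points were not, red diamonds are members of the set, and the black line is the list median. The hypoxia list is shifted to the left with a median of -0.50, while the matrix list spreads to both sides of 0 with a median of 0.12.

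Among receptors and signalling proteins, Amhr2, the receptor of anti-Müllerian hormone, measured 21.5, 19.2 and 9.36 CPM with CRISPRa and 27.9, 29.4 and 31.6 CPM without the guide, and lost the 0.6 ratio only without CRISPRa 5 (0.686). Rgs4, a regulator of G protein signalling, measured 3.04, 4.24 and 2.79 CPM against 6.26, 4.84 and 9.70 CPM, and lost it only without no sgRNA 4 (0.605). Rgs4 and Rgs5 lie 45664 bases apart on chromosome 1. Lfng, which modifies Notch receptors with sugar, measured 21.1, 21.5 and 14.2 CPM against 30.5, 34.97 and 31.8 CPM. The membrane oestrogen receptor Gper1 measured 3.68, 2.46 and 2.32 CPM against 7.64, 6.56 and 5.87 CPM, a ratio of 0.422 that stayed at 0.459 or less without either library. The orexin receptor Hcrtr1 had a ratio of 0.421 under 3 CPM.

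Of the 7 members in the transcription factor group, which leaves out those placed in other groups such as E2f8, Mybl2 and Hif3a, 5 kept the 0.6 ratio in the 4 libraries numbered 2 and 3. Zfp503, a zinc finger repressor of forebrain and limb development, measured 20.5, 21.6 and 17.6 CPM with CRISPRa and 37.8, 40.1 and 41.7 CPM without the guide. Tbx3, a T-box repressor, measured 13.5, 11.5 and 12.6 CPM against 20.9, 22.4 and 25.4 CPM. Both are among the 5, with ratios of 0.540 and 0.578 there. Tfap2b, a factor of the sympathoadrenal lineage, measured 4.44, 4.58 and 2.70 CPM against 7.97, 5.48 and 6.70 CPM and passed 0.6 without CRISPRa 5 (0.671). For Sp6, exons of a gene on the opposite strand cover 86.7% of the exonic bases, so its value is uncertain.

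In the redox, metal and transport group, Selenoh, a nucleolar selenoprotein, had its highest CRISPRa value in CRISPRa 5, with 16.2, 16.3 and 19.2 CPM against 28.3, 32.1 and 35.5 CPM. Atp7b, the copper exporter, had its lowest there, with 1.40, 1.54 and 0.372 CPM against 2.57, 2.79 and 3.43 CPM. Cbr2, a carbonyl reductase, measured 7.01, 6.15 and 4.15 CPM against 11.6, 12.8 and 15.1 CPM. Selenbp1 and Selenbp2 are also on the NRF2 and glutathione list, which had 12 genes called higher and 7 lower of 32 tested, so these members went against most of the called genes of their list. The respiratory chain genes Cox7a1 (11.5, 9.28 and 4.46 CPM against 15.2, 18.1 and 24.6 CPM) and Uqcr11 (14.6, 15.9 and 14.9 CPM against 21.8, 30.5 and 23.9 CPM) were in no role group. Among genes named Cox4 to Cox8, chosen after the values had been seen, 10 of 14 tested were called lower and 0 higher. Among those named Uqcr 4 of 8 were called lower. These counts include the members Cox4i2, Cox7a1 and Uqcr11, and 9.25% of all tested genes were called lower.

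The 110 members outside the role groups had a median ratio of 0.541. Of the 24 gene lists examined, 16 held 0 members, among them those of the integrated stress response, endoplasmic reticulum chaperones, cytosolic heat shock genes, p53 targets, synaptic and secretory granule genes and axon guidance. Members made up 1.49% of all genes of at least 1 CPM, and none of the 16 lists had more than 41 such genes. A list without members is therefore not read as a pathway left unchanged. Names starting with Gm and a digit or ending in Rik made up 40 of the 190 members (21.1%), against 9.04% of the genes of at least 1 CPM. The processed pseudogenes numbered 12, several of them sharing sequence with ribosomal protein genes, and in 19 members at least 20% of the 50-base words occur in another gene. For Gm14303 this share was 100%, all with the ribosomal protein gene Rps29, and for Gm10335 it was 88.1%, mostly with Rpl23a, so such values cannot be assigned to the copy. Some members lay beside each other, as Cdhr1 and 2610528A11Rik on chromosome 14, 3793 bases apart, and Gm49503 and Cenpm on chromosome 15, 248 bases apart. Gadd45b, a stress-induced signalling protein, measured 28.3, 27.4 and 16.02 CPM against 40.4, 42.6 and 51.5 CPM. Hdac9, a class IIa histone deacetylase, measured 25.3, 27.6 and 13.7 CPM against 39.0, 42.4 and 45.6 CPM.

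With CRISPRa 5 left out, 58 of the 190 members no longer had a ratio of at most 0.6 at a control mean of at least 1 CPM. With no sgRNA 4 left out this was so for 42, and 20 members were lost in both cases. The other libraries cost fewer members, 14 for CRISPRa 2, 23 for CRISPRa 3, 18 for no sgRNA 2 and 24 for no sgRNA 3. With each library left out in turn, 84 members met the conditions every time and 106 failed at least once. Those that failed without CRISPRa 5 and without no other library numbered 22. The 8 with the largest rise were 9030407P20Rik (0.545 to 0.695), the protease inhibitor Papln (0.554 to 0.697), the photoreceptor cadherin Cdhr1 (0.564 to 0.697), the tight junction protein Cgn (0.578 to 0.710), 1700040D17Rik (0.518 to 0.647), Amhr2, Aldoc and the fibrillin-binding Adamtsl4 (0.547 to 0.663). Those that failed only without no sgRNA 4 numbered 7, namely the kinase Pnck (0.552 to 0.708), Ankrd37, Rgs4, Gm7363 (0.563 to 0.662), Gm34934, Gm10335 (0.572 to 0.606) and Cdhr2. In Gm34934 and Cdhr2 the mean control level fell below 1 CPM while the ratio stayed at 0.583 and 0.494.

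**Figure D5:**
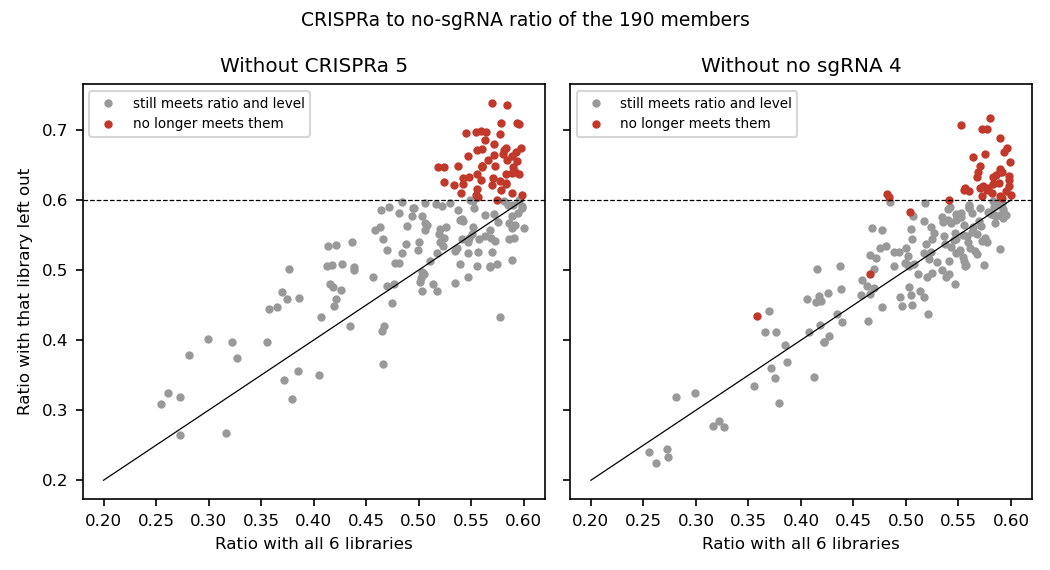
Each point is 1 of the 190 members; the x axis is the ratio with all 6 libraries and the y axis the ratio with CRISPRa 5 (left panel) or no sgRNA 4 (right panel) left out, with the diagonal as a solid line and 0.6 dashed. The 58 (left) and 42 (right) members in red no longer met the ratio or the level of 1 CPM, most of them members above a ratio of 0.5.

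The order of libraries in the set was set against that of other genes. CRISPRa 5 was the lowest CRISPRa library in 118 members (62.1%), no sgRNA 4 the highest control in 96 (50.5%), both in 66 and neither in 42. Among the 2370 other genes whose groups did not overlap in the same direction, these shares were 49.5% and 52.4%. The levels of these sets differ, and at 5 CPM or more CRISPRa 5 was lowest in 76.1% of the members and 49.4% of the other genes, and no sgRNA 4 highest in 69.6% and 52.9%. The median ratio of CRISPRa 5 to CRISPRa 2 and 3 was 0.760 in the members, 0.973 in those 2370 genes and 1.00 in all 12786. A ratio of means is itself lowered by 1 low CRISPRa library, so these values describe the selection and were not tested. With the 4 libraries numbered 2 and 3 alone, 108 members had a ratio of at most 0.6 and 187 had one below 0.8, the highest being 0.823 (Pcyt1b). The members just inside the threshold were Cenpm (0.598), Dpf1 (0.599) and Tk1 (0.59996), and the genes just outside it were Apon (0.60003), Ankle1 (0.6002) and Gzmm (0.601).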

How the data were processed

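The labels' protocols give poly(A)-enriched RNA of Neuro2a cells. The authors deposited whole-number counts per gene for 3 CRISPRa and 3 no-sgRNA samples, in the layout of featureCounts per the file headers; the submitters' processing notes name STAR 2.5.1b, featureCounts, R 4.1.2, DESeq2 (listed with version 4.1.2) and mm10. The authors' deposited comparison table holds a signal (mean normalised count), log2 fold changes, a Wald score and a p-value per gene, per the file headers, from which log2 values were copied. The remaining sample of each group, number 1 of CRISPRa and number 5 of the controls, has its counts not analysed here.

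CPM was the count divided by the column total. Counts were tested with edgeR 4.0.16 in R 4.3.3 (quasi-likelihood, TMM factors, filterByExpr, Benjamini-Hochberg over 15117 genes, called at an adjusted p under 0.05), a procedure tested on simulated data. All 190 members passed the filter. Named members are the 12 lowest ratios, the 10 highest levels, all on a gene list, those depending on CRISPRa 5 or no sgRNA 4 alone, and those next to the threshold; others, and the role groups, complexes and the motifs TTTGAA, TTCCCGCC and CACCCCAC, were chosen after values were seen. Members and gene lists were chosen with earlier results of these data known. Gene positions are those of the count table (GRCm38, matched to GENCODE M21), and promoters come from RefSeq (GRCm38.p6). Motifs were sought on both strands. Shared sequence is the share of 50-base words of GENCODE M21 transcripts found in another gene. Alternatives were other scalings, thresholds and tests (DESeq2 1.42.0, limma 3.58.1), each library left out, and a replicate block. Some genes that the naming rule selects are not reported here; totals for groups and lists still contain them.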

Additional observations from a re-analysis of the deposited data

How the results depend on the processing

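The set of 190 changed most with its thresholds. It held 92 genes at a control mean of at least 5 CPM, 60 at a ratio of at most 0.5 and 488 at a ratio of at most 0.7. With 1 library left out and the rule applied anew it held between 177 (without CRISPRa 5) and 305 genes (without CRISPRa 2), of which 132 and 176 were among the 190. TMM scaling gave 199 genes, 189 of them shared, taking the trend with gene length out of each library gave 167 with 156 shared, and the ratio of medians gave 156 with 130 shared. At an adjusted p under 0.01 the edgeR test called 654 genes lower, 75 of them members, against 1398 and 126 at 0.05. Leaving out 1 library gave 939 to 1252 genes called lower, of which 93 to 115 were members. The replicate numbers 2 and 3 occur in both groups, but their differences did not run together (correlation 0.00448 over 15117 genes). With these 4 libraries and a replicate block 1562 genes and 106 members were called lower, against 1390 and 95 without the block. ACGTG was held by 22.8% of the members and 22.1% of genes of at least 1 CPM when the promoter was limited to the bases before the start. Members under about 2 CPM rest on few counts, and a difference of this size was often not called there.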
